A study of Mus musculus with 6 samples.

Results

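The 10 genes described here encode transcription factors that set up and hold the B-lineage programme: Tcf3, Ebf1, Pax5, Ikzf1, Ikzf3, Spib, Irf4, Irf8, Bach2 and Bcl6. They were taken by gene symbol, and all 10 were among the 21448 genes of the deposited table. A minimum mean of 1 over the 6 libraries left 10533 genes for testing and 9 of the 10 factors, the exception being Bcl6, whose mean lay just under that minimum. RNA-seq was made from primary mouse lymphoma B cells, in 3 libraries labelled PRDM15 KO and 3 labelled wild type. All 6 come from the Eµ-Myc transgenic strain, in which an immunoglobulin heavy chain enhancer drives Myc in B-lineage cells. The cells of both groups were cultured with IL7, and the protocol exposed them for 24 hours to 4-hydroxytamoxifen (OHT, 50 nM), which induces the Prdm15 deletion, or to ethanol, before collection at 3 days. The labels name the genotype of each library but not its exposure, so OHT is taken to have gone to the libraries labelled knockout. On that reading exposure and genotype go together, so effects of OHT and of the Prdm15 deletion cannot be told apart. Replicates are described as biological, but not whether each is a separate mouse or tumour, so the spread behind each p-value may be partly technical.

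B cell commitment is built in layers. E proteins such as E2A, the product of Tcf3, act with EBF1 to open the programme, and PAX5 then activates B cell genes and represses genes of other lineages. Ikaros proteins, the ETS factor SPIB and the interferon regulatory factors IRF4 and IRF8 carry cells through the pre-B and later stages, while BACH2 and BCL6 hold back the plasma cell regulator encoded by Prdm1.

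Values are gene counts scaled to CPM with an effective library size, not divided by gene length, with 28852951 to 47255421 reads per library. Differences are on the scale of log2(value + 1), and an adjusted p of 0.05 was the threshold. Libraries with the same replicate number in the 2 groups deviated together from their group means and are called pairs 1, 2 and 3. Both libraries of replicate 1 stood apart from the other 4 on the first principal component (54.6% of variance). Prdm15 itself was listed at 40.2, 40.9 and 39.2 in labelled knockout libraries 1, 2 and 3 and at 29.2, 47.3 and 41.3 in wild type libraries 1, 2 and 3. Gene-level values cannot tell whether part of Prdm15 was removed, so every direction given rests on the labels. The pan-B marker Cd79b was high throughout, at 519, 446 and 452 in the libraries labelled knockout and 468, 389 and 517 in wild type. Of the other genes listed as pan-B markers Cd79a, Cd72 and Blnk were also abundant in every library, as was Ptprc, which other blood cells share. By contrast, Ms4a1 did not exceed 6.04 and Blk spanned 0.226 to 27.0. Cd22 was at 62.7, 39.3 and 24.6 in labelled knockout libraries and at 98.7, 125 and 56.2 in wild type.

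All 10 factors were detected, and between factors their level spanned a wide range. Divided by the annotated exon length of each gene, Spib had the highest mean level, with 65.7 per kilobase in the libraries labelled knockout and 92.8 in wild type. Tcf3 followed at 64.8 in labelled knockout and 67.1 in wild type libraries, then Ikzf1 at 53.3 in labelled knockout and 44.7 in wild type. Irf4 stood at 40.8 per kilobase in labelled knockout and 33.1 in wild type libraries. These 4 factors formed an upper tier within each group, and the libraries of neighbours in it overlapped.

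A middle tier held Ebf1, at 16.7 per kilobase in labelled knockout and 14.5 in wild type libraries, and Irf8, at 12.2 in labelled knockout and 18.9 in wild type. Pax5 stood at 10.7 in labelled knockout and 13.02 in wild type libraries, and Ikzf3 at 9.67 in labelled knockout and 10.6 in wild type. Ebf1 and Irf8 exchanged places in the order between the groups, with overlapping libraries in wild type but not in labelled knockout. Bach2 lay lower, at 4.32 per kilobase in labelled knockout and 4.14 in wild type libraries, and Bcl6 lowest, at 0.174 in labelled knockout and 0.124 in wild type. No library of Bach2 reached the lowest library of Ikzf3, and none of Bcl6 reached the lowest of Bach2.

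**Figure D1:**
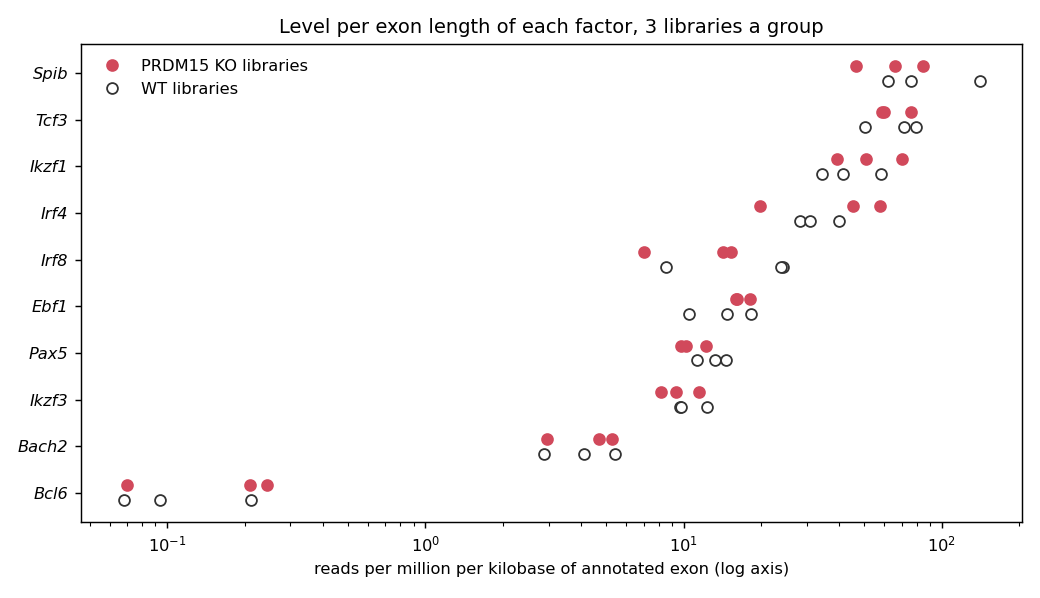
Level of the 10 factors in CPM per kilobase of annotated exon (horizontal log axis), with filled points for the 3 labelled knockout libraries and open points for the 3 wild type libraries. Spib, Tcf3, Ikzf1 and Irf4 lie highest, and Bcl6 lies below 0.25 in every library.

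Between the groups, Irf8, Spib and Pax5 were lower in the libraries labelled knockout in all 3 pairs, by a mean log2 difference of -0.56, -0.45 and -0.27. No tested factor was higher in all 3 pairs. None of the 9 tested factors passed an adjusted p of 0.05 in limma, with or without the replicate number in the fit, and in no factor were the groups separate. DESeq2 with the pairs called Irf8 (adjusted p = 0.000305) and Spib (adjusted p = 0.00254), both lower. That is 2 of 9 factors lower and 0 higher, against 3.99% of all tested genes called lower by the same test, 3.02% called higher and 7.01% called in either direction. In bulk RNA, fewer cells of a type and less RNA per cell cannot be told apart.

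Other counts can be read against those of all genes. Being lower in all 3 pairs, seen in 3 of 9 factors, was shared by 29.9% of tested genes, and being higher in all 3 by 16.7%. limma called 0 factors without the pairs, with 0 at an unadjusted p under 0.05, where it called 0.00949% of all genes (428 at an unadjusted p under 0.05). With the pairs limma called 0 factors, with 3 at an unadjusted p under 0.05, where it called 0.873% of all genes and 21.0% had an unadjusted p under 0.05. edgeR called 0 factors without the pairs, with 0 at an unadjusted p under 0.05 and 0.00% of all genes called (582 at an unadjusted p under 0.05), and 0 with the pairs, with 2 of 9 at that level, as were 2174 of all 10533 genes, and 0.370% of all genes called. DESeq2 without the pairs also called 0 factors, with 0 at that level, and 1.04% of all genes (816 at that level). With the pairs DESeq2 had 4 of 9 factors at that level, as were 1926 of all 10533 genes. Groups that do not overlap were found for 0 of 9 factors and for 9.50% of all tested genes. The median log2 difference was -0.03 over the 9 factors and also -0.03 over all tested genes.

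**Figure D2:**
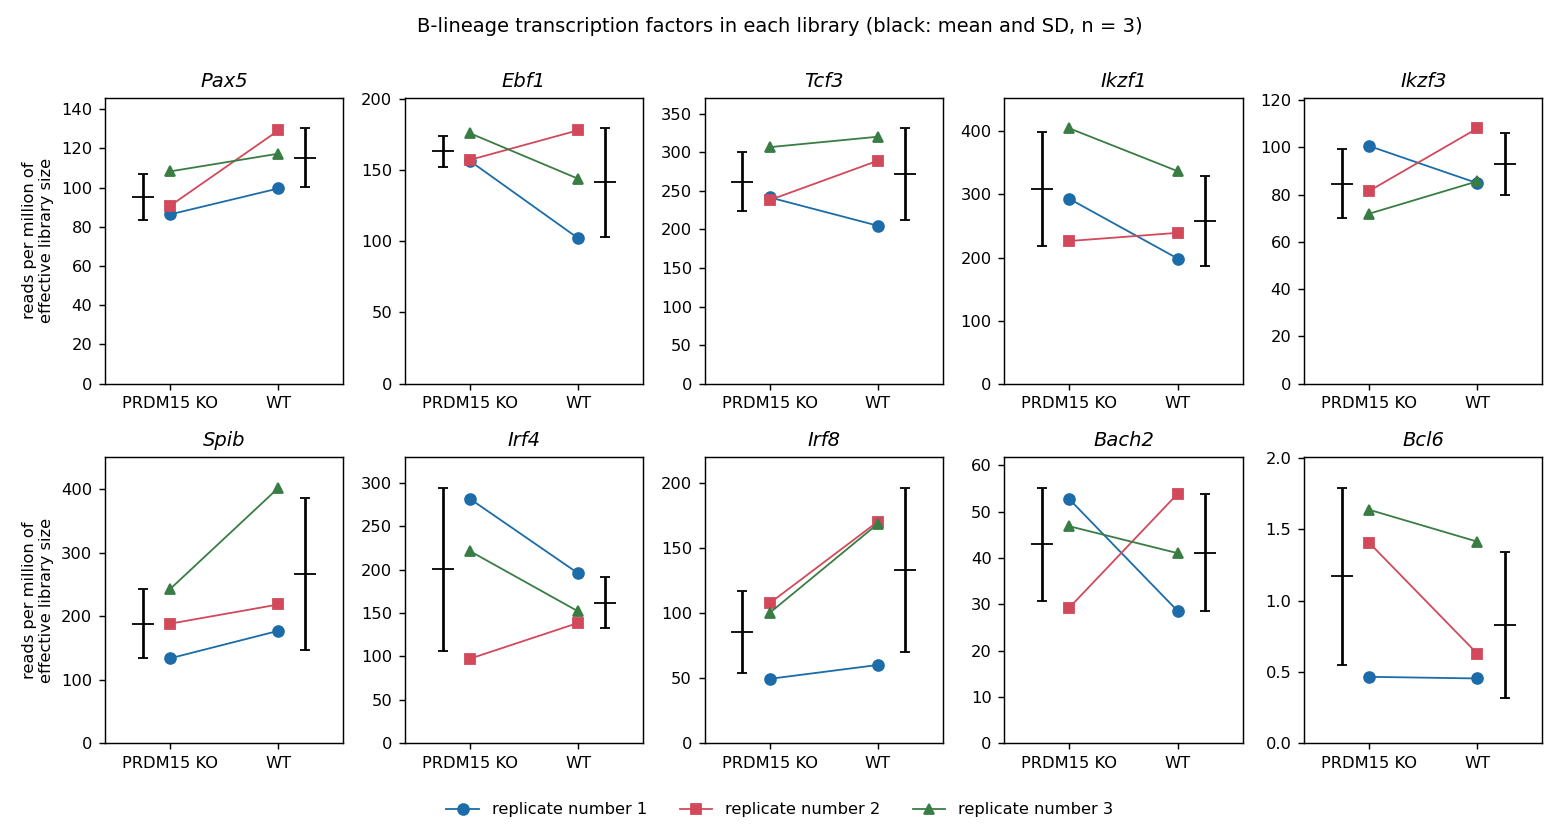
Level of each factor in CPM (vertical axes, starting at 0), labelled knockout at the left and wild type at the right of each panel, where a line connects the 2 libraries of a pair and the black bar is the group mean with its SD (n = 3). All lines of Pax5, Spib and Irf8 point up towards wild type, those of Bcl6 point down, and those of the other factors differ in direction.

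Tcf3, Ebf1 and Pax5 form the initiating tier. Tcf3 (ENSMUSG00000020167, chromosome 10), which encodes the E2A proteins, was at 241, 238 and 306 in labelled knockout libraries 1, 2 and 3 and at 205, 289 and 319.9 in the matching wild type libraries. It was higher in the labelled knockout library of pair 1 and lower in pairs 2 and 3, and the labelled knockout range lay within that of wild type (log2 difference -0.03, SE 0.10 with the pairs, 95% interval -0.30 to 0.23, limma paired adjusted p = 0.872). With equal library totals the sign turned, to 0.02.

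Ebf1 (ENSMUSG00000057098, chromosome 11), the partner that opens B-lineage genes, stood at 156, 157 and 176 in the libraries labelled knockout and at 102, 178 and 144 in wild type. The labelled knockout libraries lay close together, inside the wider wild type range, with wild type replicate 1 the lowest of the 6. Its mean was 163 ± 11.0 in labelled knockout and 141 ± 38.0 in wild type libraries (SD, n = 3 each), a log2 difference of 0.24 (95% interval -0.14 to 0.62, limma paired adjusted p = 0.400). DESeq2 with the pairs called Ebf1 higher only when pair 2, the single pair in which it was lower, was left out (log2 difference 0.49, adjusted p = 0.0129). That direction was set by the choice of pair, and the fit called 232 of all 10533 genes. Without wild type replicate 1 the Ebf1 difference was 0.03, and without pair 1 it was 0.05 in limma.

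Pax5 (ENSMUSG00000014030, chromosome 4), the commitment factor, was at 86.3, 90.7 and 108 in labelled knockout libraries and at 99.5, 129 and 117 in wild type libraries. The labelled knockout library was the lower of each pair, at 0.867, 0.702 and 0.923 times its partner in pairs 1, 2 and 3. The third labelled knockout library nevertheless exceeded wild type replicate 1, so the groups overlapped. Mean levels were 95.1 ± 11.6 in labelled knockout and 115 ± 14.9 in wild type libraries, and the log2 difference of -0.27 had a 95% interval of -0.50 to -0.05 in the paired limma fit (p = 0.0245, adjusted p = 0.188, exact two-sided permutation p over the 6 libraries = 0.2, the smallest possible being 0.1). Of the 9 tested factors Pax5 was the only one in which the group accounted for more of the variance among libraries, 46.8%, than the replicate number, 35.9%.

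The Ikaros family members did not pass in either limma fit. Ikzf1 (ENSMUSG00000018654, chromosome 11), which encodes Ikaros, was at 293, 226 and 405 in the libraries labelled knockout and at 198, 239 and 337 in wild type. Replicate 3 was the highest of each group, and the labelled knockout library was higher in pairs 1 and 3 and slightly lower in pair 2 (log2 difference 0.25, 95% interval -0.07 to 0.56, limma paired adjusted p = 0.317). Without pair 2, the single pair in which it was lower, DESeq2 called it higher (log2 difference 0.46, adjusted p = 0.00666), a direction set by the choice of pair. The difference was 0.03 without labelled knockout replicate 3 and, in limma, 0.09 without pair 1.

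Ikzf3 (ENSMUSG00000018168, chromosome 11) encodes Aiolos, the relative of Ikaros that rises as B cells mature. It was at 101, 81.5 and 71.9 in labelled knockout libraries and at 84.8, 108 and 85.6 in wild type libraries, higher in pair 1 and lower in pairs 2 and 3. The log2 difference was -0.14 (95% interval -0.47 to 0.20, limma paired adjusted p = 0.579). Without pair 1 it was -0.33 and passed paired limma (adjusted p = 0.0489), while a fit without labelled knockout libraries 2 and 3 gave 0.12.

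Spib (ENSMUSG00000008193, chromosome 7), an ETS factor related to PU.1 that pairs with IRF4 and IRF8 on DNA, was at 134, 188 and 243 in labelled knockout libraries 1, 2 and 3. The matching wild type libraries held 177, 219 and 402. Replicate 3 was the highest and replicate 1 the lowest of each group, and each labelled knockout library was below its partner, at 0.755, 0.862 and 0.604 times its level. Means were 188 ± 54.5 in labelled knockout and 266 ± 119.8 in wild type libraries (log2 difference -0.45, SE 0.10 with the pairs, 95% interval -0.71 to -0.18). The adjusted p was 0.135 in paired limma, 0.150 in paired edgeR and 0.00254 in paired DESeq2, and the exact permutation p over the 6 libraries, which ignores the pairs, was 0.5. The DESeq2 call was lost without pair 3 (adjusted p = 0.227), where the difference was largest.

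Irf4 and Irf8 encode related interferon regulatory factors that act redundantly in pre-B cells and later take opposite parts, with IRF4 leading towards plasma cells. Irf8 (ENSMUSG00000041515, chromosome 8) was at 49.6, 108 and 100.3 in the libraries labelled knockout and at 60.3, 171 and 169 in wild type. Both replicate 1 libraries were low, and in pairs 2 and 3 the labelled knockout library held 0.631 and 0.594 times the level of its partner, against 0.823 in pair 1. The log2 difference of -0.56 was the largest of the 9 tested factors (SE 0.10 with the pairs, 95% interval -0.82 to -0.30). Its adjusted p was 0.0907 in paired limma, 0.128 in paired edgeR and 0.000305 in paired DESeq2. The DESeq2 call was lost without pair 2 (adjusted p = 0.106) or pair 3 (adjusted p = 0.150), and without pair 1 limma called it too (log2 difference -0.70, adjusted p = 0.000936).

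Irf4 (ENSMUSG00000021356, chromosome 13) had no common direction. It was at 282, 97.4 and 221 in labelled knockout libraries and at 196, 139 and 152 in wild type libraries, so labelled knockout library 1 was the highest and labelled knockout library 2 the lowest of all 6. The log2 difference was 0.52, -0.51 and 0.54 in pairs 1, 2 and 3, with a mean of 0.19 (95% interval -0.37 to 0.75, limma paired adjusted p = 0.662). It turned to -0.13 without labelled knockout library 1. Without pair 2, the single pair in which Irf4 was lower, paired DESeq2 called it higher (log2 difference 0.58, adjusted p = 2.82e-06). Paired limma without pair 2 did not call it (adjusted p = 0.195). Only pairs in which Irf4 was higher were left in both fits, so the direction was set by the choice of pair. This DESeq2 fit called 232 of all 10533 genes.

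The balance of Irf4 to Irf8, examined after their values were seen, was higher in the labelled knockout library of every pair. Per kilobase of exon, Irf4 was at 8.17, 1.30 and 3.18 times the level of Irf8 in labelled knockout libraries 1, 2 and 3, against 4.67, 1.17 and 1.29 times in wild type libraries. The ratio thus differed by 1.75-, 1.11- and 2.46-fold within pairs 1, 2 and 3. The groups overlapped, and the exact two-sided permutation p over the 6 libraries was 0.5, the smallest possible being 0.1. A higher ratio in every pair was not particular to Irf4 and Irf8. The ratio of Ikzf1 to Ikzf3 was also higher in each labelled knockout library, by 1.246-, 1.253- and 1.431-fold in pairs 1, 2 and 3. Its groups overlapped too, with the same permutation p of 0.5. How often other gene pairs behave this way was not tested.

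Upstream sequences are shown for the 3 factors that were lower in every pair, Irf8, Spib and Pax5. Of the 10 factors 9 had an entry in the RefSeq promoter table, all but Ikzf3. Each sequence is the 250 bases before the outermost RefSeq start, read 5′ to 3′ on the gene's strand in build GRCm38.p6, whereas the submitters' processing notes name mm9. They lie at chr8:120736108-120736357 (plus strand) for Irf8, chr7:44532072-44532321 (minus strand) for Spib and chr4:44710695-44710944 (minus strand) for Pax5. Capitals mark GGAA or its reverse complement TTCC, the core letters of ETS factor sites.
Irf8: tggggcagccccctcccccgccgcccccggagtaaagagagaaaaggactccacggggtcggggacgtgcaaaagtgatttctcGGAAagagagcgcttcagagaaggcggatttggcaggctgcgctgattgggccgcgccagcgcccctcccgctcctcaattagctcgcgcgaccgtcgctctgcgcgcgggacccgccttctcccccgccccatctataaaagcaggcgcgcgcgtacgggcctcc
Spib: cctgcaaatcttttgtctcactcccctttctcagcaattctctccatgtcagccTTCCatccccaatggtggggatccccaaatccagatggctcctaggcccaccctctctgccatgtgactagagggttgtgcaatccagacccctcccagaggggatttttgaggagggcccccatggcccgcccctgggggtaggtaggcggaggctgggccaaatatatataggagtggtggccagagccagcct
Pax5: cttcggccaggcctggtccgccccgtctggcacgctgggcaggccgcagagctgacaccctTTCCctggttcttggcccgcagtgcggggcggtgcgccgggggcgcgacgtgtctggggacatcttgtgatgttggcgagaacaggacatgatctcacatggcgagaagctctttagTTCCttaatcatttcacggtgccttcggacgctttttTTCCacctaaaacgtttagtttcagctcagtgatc
Irf8 and Spib held 1 such core each and Pax5 held 3, where 93.4% of 27018 promoters of this length held at least 1 and the median was 3. The composite ETS and IRF motif, GGAA followed after any 2 bases by GAAA and so containing a GGAA core, was in none of the 3 on either strand, and was found in 2.38% of all promoters. It was present once in the upstream 250 bases of Bach2. The EBF1 motif, TCCC followed after any 2 bases by GGGA and found in 0.774% of all promoters, was in none of the 9 factor promoters that had an entry. The Ikaros motif TGGGAA, which also contains GGAA and was in 21.5% of all promoters, was in none of the 3 shown. E-boxes (CANNTG), the sites of E proteins and found in 66.1% of all promoters, numbered 0 in Irf8, 2 in Spib and 1 in Pax5. These letter matches describe the windows only.

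Bach2 and Bcl6 encode the repressors that delay plasma cell differentiation. Bach2 (ENSMUSG00000040270, chromosome 4) was at 52.7, 29.3 and 46.9 in labelled knockout libraries and at 28.6, 53.9 and 41.0 in wild type libraries. The pairs went opposite ways, with a log2 difference of 0.86 in pair 1, -0.86 in pair 2 and 0.19 in pair 3, so that the mean was 0.06 (95% interval -0.74 to 0.87, limma paired adjusted p = 0.926). Only 4.17% of its variance among libraries went with the replicate number, against a median of 71.8% over the 9 tested factors and 74.5% over all tested genes. Bach2 shares 5.40% of its exon bases with an antisense gene, Bach2os, which did not exceed 0.251 in any library, and Pax5 shares 7.18% with a transcript on the opposite strand, not analysed here. The strand setting of the counting is not given in the sources used, so reads of these overlaps cannot be told apart.

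Bcl6 (ENSMUSG00000022508, chromosome 16), which encodes a repressor needed for germinal centres, had few reads. It was at 0.466, 1.41 and 1.64 in libraries labelled knockout, which is 14, 56 and 69 reads, and at 0.454, 0.627 and 1.41 in wild type, which is 17, 25 and 66 reads. It was higher in the labelled knockout library of each pair, by 1.03-, 2.24- and 1.16-fold, with overlapping groups. Without the minimum on the mean its log2 difference was 0.23 (limma paired adjusted p = 0.542). Germinal centre genes were also low: 6 of 8 were under 1 in every library, and Mef2b was listed at 0 in all. Of the 2 tested, S1pr2 (log2 difference 0.27) and Mybl1 (-0.19) did not pass.

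**Figure D3:**
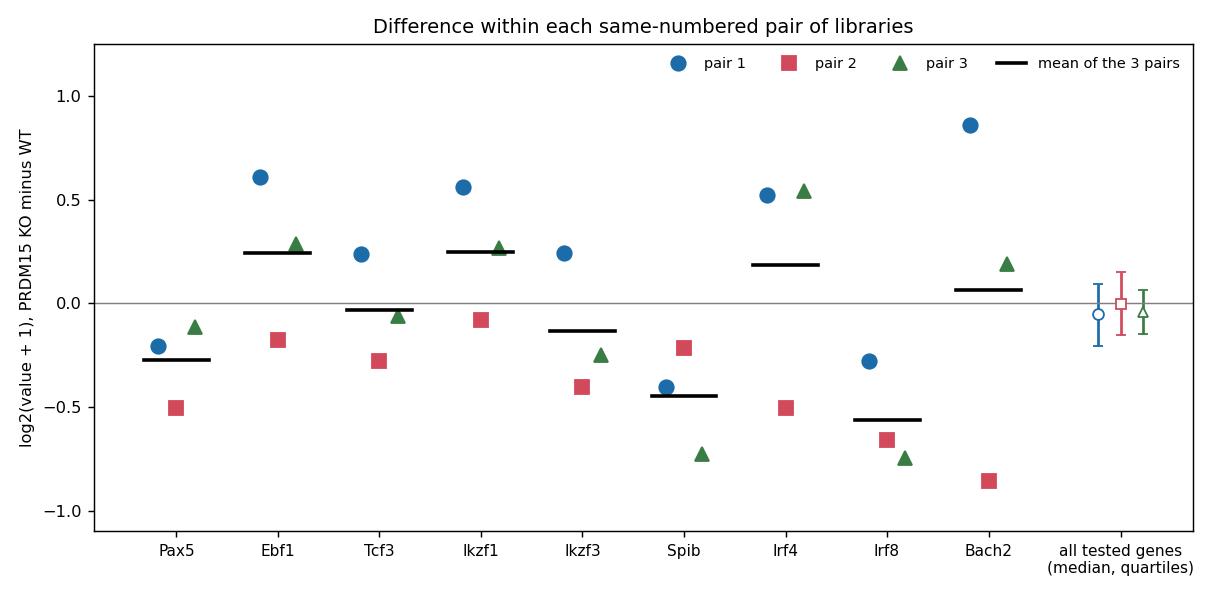
Difference in log2(value + 1), labelled knockout minus wild type (vertical axis), within pairs 1, 2 and 3 for the 9 tested factors, with a black bar for the mean and, at the right, the median and quartiles of all 10533 tested genes in each pair. In pair 2 all 9 factors lie below 0, and in pair 1 only Pax5, Spib and Irf8 do.

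The direction of the differences depended on the pair. In pair 2 all 9 tested factors were lower in the labelled knockout library, with a median log2 difference of -0.40, while 50.3% of all tested genes were lower there and their median was -0.0016. In pair 1, 6 of the 9 were higher and 3 lower, with a median of 0.24, against 59.7% of all genes lower and a median of -0.05. Pair 3 was mixed, with 5 lower and 4 higher and a median of -0.06, where 61.0% of all genes were lower. Of the 9 genes listed as pan-B markers with values, 6 were higher in pair 2. Among these 6 were Ptprc, which other blood cells share, and Blk, with 24 reads in labelled knockout and 9 in wild type. Cd22 (-1.64), Ms4a1 (-0.85) and Cd72 (-0.31) were lower there. The median difference over the 9 was 0.11, 0.06 and -0.19 in pairs 1, 2 and 3.

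Macrophage transcripts also differed between the pairs. The summed level of 17 macrophage and granulocyte markers was 32.7, 1999 and 1089 in labelled knockout libraries 1, 2 and 3 and 51.8, 194 and 135 in wild type. Of the 12 tested, 0 passed limma, and their median log2 difference was -0.55, 2.76 and 2.36 in pairs 1, 2 and 3. Lyz2, the macrophage lysozyme, was at 10.7, 1471 and 820 in labelled knockout libraries and at 20.4, 124 and 86.0 in wild type, whereas the granulocyte genes Elane, S100a8 and S100a9 did not exceed 0.627 in any library. Paired DESeq2 called 2 of the list, Fcgr3 and Fcer1g, both higher (adjusted p = 0.0217 and 0.0127). The call of Fcgr3 was lost without pair 3, and that of Fcer1g without pair 2 or pair 3.

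IRF8 is also used by macrophages and dendritic cells. Dendritic cell markers were low, with 7 of 9 under 1 in every library and a summed level of 5.69 to 9.94 in labelled knockout and 4.26 to 6.999 in wild type libraries. What part the macrophage transcripts have in the differences of the 9 tested factors was not tested.

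A list of 20 other regulators of the B lineage was examined in the same way. Of the 20 tested, 0 passed limma in either fit, 4 were higher and 4 lower in all 3 pairs, and the median log2 difference was 0.04. Bcl11a, a zinc finger factor needed for early B cells, was at 18.3, 94.0 and 57.3 in labelled knockout libraries and at 27.6, 105 and 109.7 in wild type, lower in every pair. Its log2 difference was -0.55 (limma paired adjusted p = 0.149), and paired DESeq2 called it (adjusted p = 0.0124), though not without pair 3. Mef2c (log2 difference -0.28) and Gfi1 (-0.41) were likewise lower in every pair without passing, and Foxo1, which drives recombinase expression, was higher in every pair (0.42) without passing. The most abundant were Pou2af1, a coactivator, at 462 ± 106 in labelled knockout and 443 ± 101 in wild type libraries, and Ets1, at 414 ± 91.2 in labelled knockout and 470 ± 176 in wild type (SD, n = 3 each).

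Partners and relatives of the factors were taken by family. Among E proteins and their ID inhibitors, 0 of 4 tested passed limma (median log2 difference 0.05). Tcf12 was higher in every pair (0.18) and Id3 lower in every pair (-0.12), while Tcf4 (-0.08) had no common direction. Id2, which inhibits E proteins and is also made by other blood cells, was at 3.56, 30.4 and 17.3 in labelled knockout libraries and at 8.71, 8.87 and 6.80 in wild type. It was highest in the 2 libraries with the most macrophage transcripts, whose part in it was not tested.

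Ikaros relatives and subunits of its NuRD partner complex had a median of -0.04, with 0 of 8 tested passing. Chd4, the NuRD remodeller, was at 600 ± 57.8 in labelled knockout and 603 ± 81.5 in wild type libraries, and Ikzf2 and Ikzf4 were under 1 in every library. Of 5 other tested IRF genes, 0 passed limma (median 0.09). Irf5, which acts in inflammatory signalling, was higher in every pair (0.29), and paired DESeq2 called it with all pairs (adjusted p = 0.0428) but not with any pair left out.

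The BCL6 corepressors had a median of -0.06, with 0 of 8 passing limma, 1 higher and 4 lower in all 3 pairs. Tbl1xr1, a subunit of corepressor complexes recruited by BCL6, was at 237, 248 and 239 in labelled knockout and at 166, 205 and 205 in wild type libraries, so its groups did not overlap (log2 difference 0.34, limma paired adjusted p = 0.119). Paired DESeq2 called it with all pairs (adjusted p = 0.00215), a call lost without pair 1.

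Known targets of the factors were counted too, although their RNA levels do not measure the activity of a factor. Of 17 genes activated by PAX5 or EBF1, 16 were tested, 0 passed limma, 3 were lower and 1 higher in all 3 pairs, and the median log2 difference was -0.05. Cd22, the inhibitory coreceptor of B cells, stood apart at 62.7, 39.3 and 24.6 in labelled knockout libraries against 98.7, 125 and 56.2 in wild type. It was lower in every pair (log2 difference -1.15, limma paired adjusted p = 0.0713), and paired DESeq2 called it with all pairs (adjusted p = 4.58e-07) and with any pair left out. Vpreb1, a surrogate light chain gene (log2 difference -0.41), and Bst1 (-0.30) were lower in every pair without passing.

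Genes repressed by PAX5 had a median log2 difference of 0.35 over 8 tested, with 0 past limma, 2 higher and 1 lower in all 3 pairs. The medians were -0.15, 0.84 and 0.19 in pairs 1, 2 and 3. Csf1r stands both in this list and among the macrophage transcripts, whose part in these medians was not tested. Cd28, a T cell costimulator, was at 0.599, 11.0 and 6.09 in labelled knockout libraries and at 0.721, 1.30 and 0.578 in wild type, and paired DESeq2 called it (adjusted p = 0.0236), but not without pair 2 or pair 3. Notch1 was at 42.8, 47.7 and 46.1 in labelled knockout libraries and at 49.2, 49.3 and 57.9 in wild type, separate between the groups (log2 difference -0.19, limma paired adjusted p = 0.235). Emb (0.19) was higher in every pair without passing.

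Among 10 genes repressed by BCL6, 0 passed limma, 3 were higher and 3 lower in all 3 pairs, and the median was -0.02. Prdm1, which encodes the plasma cell regulator BLIMP1 and is repressed by PAX5, BACH2 and BCL6, was higher in each pair and separate between the groups at a very low level. It held 76, 51 and 63 reads in labelled knockout libraries, or 2.53, 1.28 and 1.49 CPM, against 36, 7 and 28 reads, or 0.962, 0.175 and 0.599 CPM, in wild type. Its log2 difference was 0.81 (limma paired adjusted p = 0.134, DESeq2 paired 0.0419, a call lost without pair 1 or pair 3, and with no adjusted p given without pair 2). Cd80 (0.79) and Cd69 (0.68) were higher in every pair and Ccnd2 (-0.34) lower, none past limma. Cd80 was called by DESeq2 with all pairs (adjusted p = 0.0356), a call lost without pair 1 or pair 3, with no adjusted p given without pair 2.

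**Figure D4:**
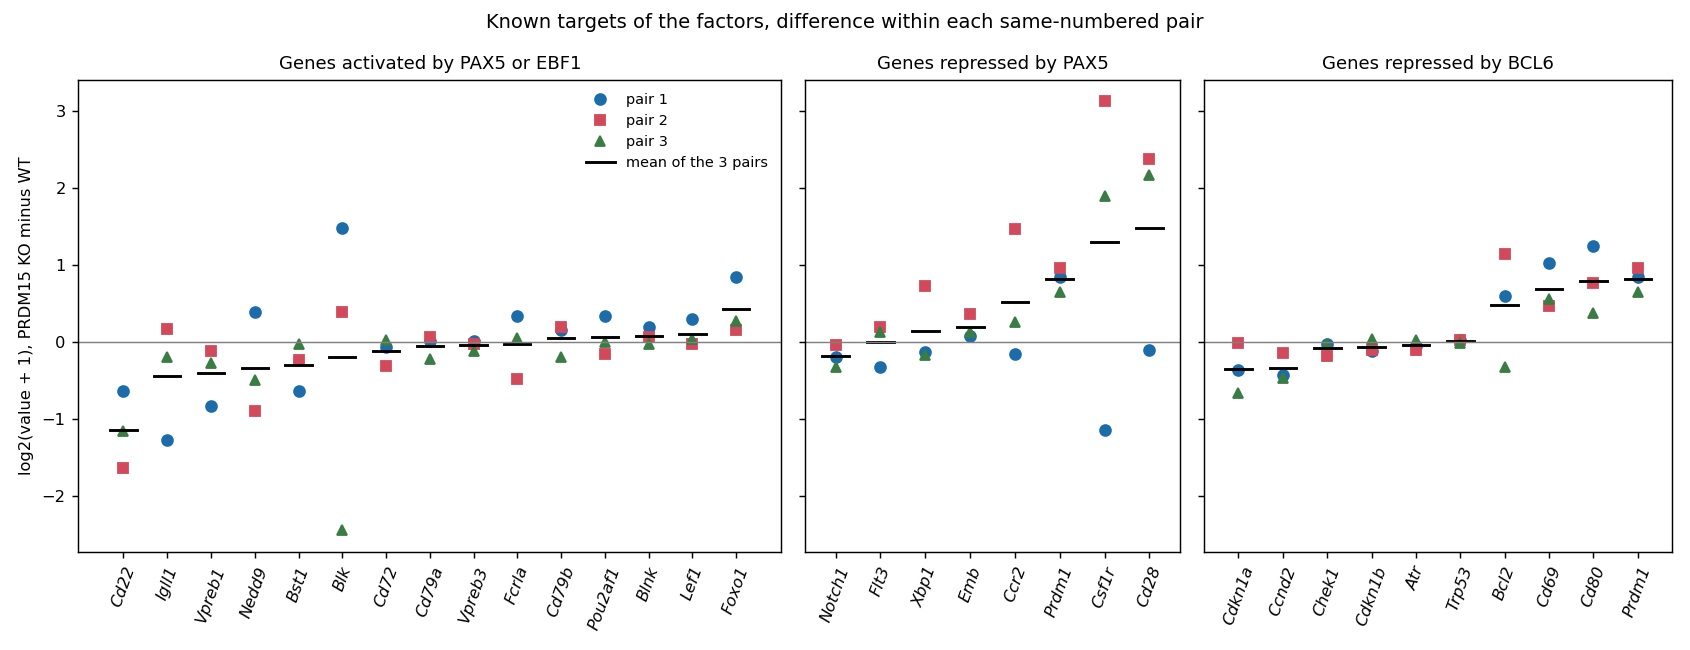
Difference in log2(value + 1), labelled knockout minus wild type (vertical axis), within pairs 1, 2 and 3 for the reported tested genes activated by PAX5 or EBF1, repressed by PAX5 and repressed by BCL6, with a black bar for the mean. Cd22 lies below 0 and Prdm1 above 0 in all 3 pairs, and Csf1r and Cd28 lie above 0 in pairs 2 and 3 and below 0 in pair 1.

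BACH2 dimerises with small MAF proteins and competes for sites such as those of Hmox1, the heme oxygenase gene. Of the 5 genes on this list, 0 passed limma (median log2 difference 0.12), and Bach1 (0.22) was higher in every pair. Hmox1 was at 11.7, 63.1 and 39.3 in labelled knockout libraries and at 5.93, 9.68 and 8.24 in wild type, separate between the groups (log2 difference 1.86, limma paired adjusted p = 0.0852). Paired DESeq2 called it with all pairs (adjusted p = 7.56e-09) and with any pair left out. It was highest in the 2 libraries with the most macrophage transcripts, whose part in it was not tested.

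Stage markers did not move together. Of 7 tested plasma cell genes, 0 passed limma (median 0.02), with Mzb1 at 418 ± 128 in labelled knockout and 417 ± 41.1 in wild type libraries and Xbp1, the secretory regulator, at 188 ± 60.9 in labelled knockout and 166 ± 30.2 in wild type. Mature B cell genes had a median of 0.06, with 0 of 9 passing and 2 higher and 2 lower in every pair, among them H2-Aa (0.33), which was higher, and Cd22 and H2-Ab1 (-0.40), which were lower. T and NK cell markers had 4 of 11 under 1 in every library, Cd3e, Cd4, Ncr1 and Gata3, and Lck, which B and T lineages share, had the highest level of the list in every library. Cd8a, Cd8b1, Cd3g and Cd3d stood at 5.14, 3.11, 2.68 and 1.08 in labelled knockout library 2, against at most 0.347 in any wild type library, and what part T cell transcripts have in the differences of that library was not tested. Of its 4 tested genes 0 passed limma. The single tested gene of the erythroid and megakaryocyte list, Pf4, was at 0.366, 48.7 and 27.2 in labelled knockout libraries and at 3.79, 6.07 and 2.52 in wild type, and that of the stromal and endothelial list, Pecam1, was higher in every pair (0.36). Neither passed.

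Genes with the most similar profile over the 6 libraries were sought by the root mean square difference of centred log2 values. For Irf8 these were Chst3, at a distance of 0.11, and Qsox1, at 0.17, where Irf8 itself varied by 0.67 about its mean. Chst3 was at 42.8, 75.2 and 80.8 in labelled knockout libraries and at 52.5, 149 and 143 in wild type. For Spib they were Ly6e and Socs3, both at 0.13, and for Pax5 they were Kif24, at 0.04, and Hist1h4h, at 0.05. With 6 libraries and 10533 genes such likeness is a description only.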

How the data were processed

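Total RNA of 6 libraries was sequenced from directional libraries, per the labels' protocols. CASAVA, HTSeq, STAR 2.4.2a and edgeR appear, with build mm9 and without role or order, in the submitters' processing notes; the annotation and strand setting were not given there. The deposited values are a signal, gene counts divided by an effective library size, although the table is named for FPKM: 100% of values in each library were whole multiples of 1 step within 0.01 reads. Genes with a mean of at least 1 were fitted with limma 3.58.1 on log2(value + 1), with a trended prior, two-sided, Benjamini-Hochberg adjusted over 10533 genes at 0.05; such differences understate those of low genes. The fit without the replicate number was set as the main one. Deviations from group means correlated at 0.73, 0.73 and 0.84 between same-numbered libraries (labels do not state what a number shares), so the numbers were taken to pair them, and the paired fit is printed beside it. Recovered counts were tested with edgeR 4.0.16 and DESeq2 1.42.0, in R 4.3.3. No 2 libraries of a group agreed within counting noise (chi-square over degrees of freedom 85.9 or more). Exon lengths are from GENCODE M21 (GRCm38). Scripts were tested on simulated data. The genes eligible for naming were the members, Prdm15, in each of 18 lists the 4 with the smallest paired p and the 2 with the highest mean, and the 2 genes most like each of the 3 members with the smallest paired p; any other gene named was chosen after its values were seen. Members and lists were chosen with earlier results of these data known. Ighm, Ighd, Trac and Hbb-bs were not analysed here, and some list genes that were counted are not reported here. Plots used Python 3.11.15 and matplotlib 3.10.9.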

Additional observations from a re-analysis of the deposited data

How the results depend on the processing

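Over all tested genes, limma called 1 gene without the replicate block and 92 with it (14 higher, 78 lower). It called 0 with a pseudocount of 0.1, with no filter, with quantile normalization and without labelled knockout libraries 2 and 3, and 2 with a mean of at least 5. edgeR called 0 and, with the block, 39. DESeq2 called 110 and, with the block, 738. Leaving out any 1 library gave 0. Without pairs 1, 2 and 3 the blocked fit called 840, 0 and 0 genes in limma and 748, 232 and 308 in DESeq2, the DESeq2 fits being chosen after seeing the data. The number of factors called was 0 in all these fits except paired DESeq2, with 2, paired limma without pair 1, with 3, and paired DESeq2 without pair 1, with 2, and without pair 2, with 4. Of those 4, 3 were called higher, Ebf1, Ikzf1 and Irf4. Each was lower only in pair 2, so leaving that pair out set their direction.

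Irf8, Spib and Pax5 kept their direction under every alternative run. In the limma fits with the pairs this was fixed in advance, as each was lower in every pair. Leaving out 1 library in the unpaired fit gave -1.05 (without wild type replicate 1) to -0.21 for Irf8. The same gave -0.69 to -0.10 (without wild type replicate 3) for Spib and -0.38 to -0.19 for Pax5. For Tcf3 the difference turned to 0.020 with equal totals, and lay between -0.22 and 0.097 without 1 library, at 0.088 without pair 2 and at 0.13 in DESeq2 without pair 2. For Bach2 it lay between -0.17 and 0.31 without 1 library and was -0.34 (limma) and -0.33 (DESeq2) without pair 1, and 0.52 (limma) and 0.58 (DESeq2) without pair 2. Irf4 lay between -0.13 and 0.64 without 1 library. Ikzf3 turned to 0.12 without labelled knockout libraries 2 and 3 and to 0.040 in DESeq2 without pair 2. The cause of these turns was not tested.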
